A study of Homo sapiens with 48 samples.

Results

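The NR4A orphan nuclear receptors NR4A1 (also called Nur77), NR4A2 (Nurr1) and NR4A3 (Nor1) were followed in 48 RNA-seq libraries of uveal melanoma cell lines. They are 3 of the 58870 genes in the deposited count files. The members were chosen by gene family and by a pattern seen in these data, namely that inhibition of BAF and of protein kinase C (PKC) moved them in opposite directions at 4 h. The 4 h values of these 3 genes are therefore given as a description with no test, and their tests are kept to 24 h, to differences between lines and drugs at 24 h, and to the DMSO levels at 24 h.

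The study treated 3 lines whose genotype is labelled WT, 92-1, MEL202 and MP41, with FHT-1015 or with DMSO for 4 h or 24 h. FHT-1015 inhibits SMARCA4 and SMARCA2, the ATPases that drive BAF chromatin remodelling complexes. Line 92-1 was also treated with the PKC inhibitor IDE196, next to a second set of DMSO libraries at the same 2 times. Each of the 16 groups held 3 replicates of 1 line that the labels call biological without saying how cultures were separated, so p-values measure the spread between those libraries. The labels give no doses. The 12 libraries of a line, a drug and its DMSO controls are called an experiment here.

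NR4A receptors bind DNA, as monomers at a site called the NBRE, without a known hormone ligand, so their activity is set largely by how much of them is made. They are immediate early genes: cyclic AMP acting through CREB, calcium acting through MEF2, and growth factor signals acting through MAPK can switch them on without new protein synthesis, and their messages are short-lived. In most uveal melanomas a Gq-type G protein is locked in its active state and signals through phospholipase C and PKC to MAPK, while in normal melanocytes NR4A genes respond to the melanocortin receptor MC1R.

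NR4A1 (ENSG00000123358.20) lies on chromosome 12 at 52022832 to 52059507 on the plus strand of GRCh38, with coordinates from GENCODE release 29. NR4A2 (ENSG00000153234.14) lies on chromosome 2 at 156324432 to 156342348 on the minus strand, and NR4A3 (ENSG00000119508.18) on chromosome 9 at 99821855 to 99866891 on the plus strand. The 3′ end of NR4A1 overlaps a long noncoding RNA gene of the opposite strand, AC025259.3 (chr12:52058459-52059503), over 816 bases, or 11.19% of its exon bases. Reads there cannot be assigned without strand, and the summed stranded columns held 1.22 to 1.81 times as many NR4A1 reads as the unstranded column, against 1 for NR4A2 and 1 to 1.001 for NR4A3. AC025259.3 itself was counted at 0 to 20 reads per library. The NR4A1 level of the unstranded column thus leaves out reads in every library.

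RefSeq promoter windows were matched for 2 of the 3 members, NR4A1 and NR4A3, and both genes' windows are shown because they differ in the core of the cyclic AMP response element (CRE), the site that CREB binds. They are the 250 bases before each RefSeq transcription start on GRCh38.p14, on the plus strand, and the capitals mark the CRE core TGACG or its reverse complement CGTCA.
NR4A3, chr9:99821635-99821884: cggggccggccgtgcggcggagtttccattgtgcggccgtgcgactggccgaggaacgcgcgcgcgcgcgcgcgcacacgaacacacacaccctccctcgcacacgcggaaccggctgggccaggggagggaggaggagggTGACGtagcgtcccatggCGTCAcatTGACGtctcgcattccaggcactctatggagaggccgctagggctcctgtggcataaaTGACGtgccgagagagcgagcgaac
NR4A1, chr12:52022582-52022831: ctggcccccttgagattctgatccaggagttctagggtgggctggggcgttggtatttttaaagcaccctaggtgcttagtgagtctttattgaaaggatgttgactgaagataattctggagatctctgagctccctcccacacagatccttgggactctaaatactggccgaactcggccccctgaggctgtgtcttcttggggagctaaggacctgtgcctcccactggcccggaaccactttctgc
NR4A1, chr12:52037465-52037714: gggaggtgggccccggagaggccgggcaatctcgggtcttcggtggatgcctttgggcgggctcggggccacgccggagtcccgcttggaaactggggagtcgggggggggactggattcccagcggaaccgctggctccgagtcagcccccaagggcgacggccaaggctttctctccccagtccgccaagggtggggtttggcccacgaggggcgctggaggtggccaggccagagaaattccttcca
The NR4A3 window held 4 CRE cores, which start 109, 91, 83 and 25 bases before the RefSeq transcription start. That start lies 30 bases downstream of the GENCODE gene start given above, so the last core lies inside the GENCODE gene. The second NR4A1 window ends at a RefSeq start 14883 bases inside the gene. Among 35116 windows of this length, 21.22% held at least 1 core on either strand and 83 windows, or 0.2364%, held 4 or more. Neither NR4A1 window held one. The full CRE TGACGTCA, present in 1.646% of windows, was found in none of the 3, and the same held for the AP-1 site TGANTCA (6.573%), the NBRE AAAGGTCA (1.045%), the CArG box bound by SRF (1.159%) and the MEF2 box (2.802%). A match is a string of letters and not a measured binding site, and the absence of a match concerns only these windows. Which start the NR4A1 messages of these cells use was not examined, nor were other NR4A1 starts.

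The 3′ untranslated region, where the motif ATTTA is a mark of unstable messages, held 3 copies in NR4A1 (5.338 per kb), 4 in NR4A2 (3.049 per kb) and 10 in NR4A3 (3.307 per kb). The median over 17664 genes was 2 copies and 1.575 per kb. As high a density was found in 8.418% of genes for NR4A1, 27.09% for NR4A2 and 23.77% for NR4A3, and as many copies in 39.95%, 32.46% and 11.46%.

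Library depth ran from 11394088 to 32317711 reads in genes. The mitochondrial share of reads was higher with treatment at 24 h, at 8.21% to 9.55% with FHT-1015 against 7.07% to 7.43% in DMSO in 92-1, 3.56% to 5.96% against 1.30% to 3.42% in MP41 and 6.66% to 7.74% with IDE196 against 3.79% to 5.28%, while in MEL202 the groups overlapped (5.36% to 7.77% against 3.32% to 5.74%). Its part in the 24 h results was not tested. Libraries low in genes with a read, mitochondrial share or depth included MEL202 FHT-1015 4 h replicate 2 (17592 genes), MP41 FHT-1015 4 h replicate 1 (20023 genes and the lowest depth) and MP41 DMSO 24 h replicate 2 (20353 genes, 1.30% mitochondrial). Without the first of these the 4 h log2 differences in MEL202 were -0.41 for NR4A1, 1.62 for NR4A2 and 1.82 for NR4A3. Without the MP41 FHT-1015 library the 4 h differences in MP41 were 0.10, 1.497 and 1.12 in the same order. Without the MP41 DMSO library the 24 h differences in MP41 were -0.0064, 3.17 and -0.49, the last with an adjusted p of 0.0515 (edgeR). Counted reads ran from 278 to 7954 for NR4A1, from 21 to 2714 for NR4A2 and from 88 to 22350 for NR4A3. The melanocyte marker list had 9 or 10 of its 10 genes at 1 CPM (reads scaled to library size) or more in every experiment, with none at 0. Summed leukocyte, endothelial, epithelial and fibroblast markers stayed at or below 6.21, 1.70, 14.5 and 41.9 CPM. The summed melanocyte markers ranged from 8181 to 23362 CPM in the DMSO libraries of the FHT-1015 experiments and from 2791 to 18050 CPM with FHT-1015. With IDE196 they ranged from 17299 to 21206 CPM, against 16534 to 19789 CPM in its DMSO libraries. The part of this marker shift in the FHT-1015 results was not tested. In bulk RNA, fewer expressing cells and less RNA per cell cannot be told apart.

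Levels below are TMM-normalised CPM on 1 scale for all 48 libraries. Across those libraries the highest CPM exceeded the lowest 23.7-fold for NR4A1, 139-fold for NR4A2 and 185-fold for NR4A3. The widest spread was that of NR4A3, which runs from IDE196 at 24 h to FHT-1015 at 4 h.

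**Figure D1:**
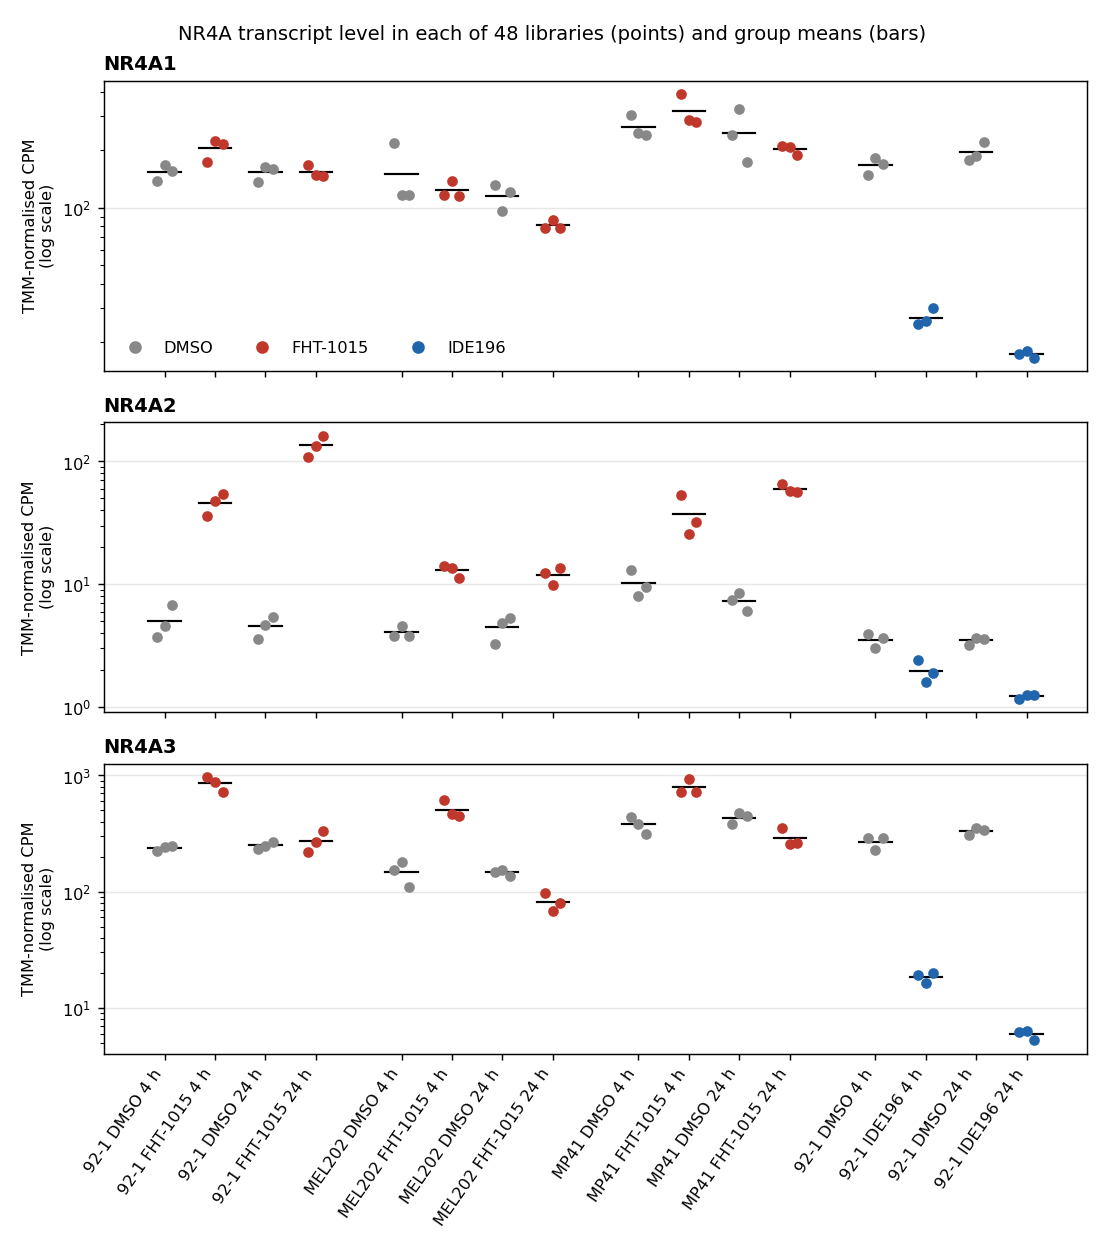
TMM-normalised CPM (log scale) of NR4A1, NR4A2 and NR4A3 in each library (points, n = 3 per group) with group means (bars), ordered along the x axis by line, drug and time. FHT-1015 lifts NR4A2 above DMSO at both times and NR4A3 at 4 h, and IDE196 libraries lie below their DMSO libraries for the 3 genes.

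In DMSO, all 3 receptors were expressed in each line. In the 24 h DMSO libraries of the FHT-1015 experiments, NR4A1 stood at 153 ± 14.3 CPM (SD, n = 3) in 92-1, 116 ± 18.1 CPM in MEL202 and 246 ± 77.0 CPM in MP41. NR4A3 stood at 250.1 ± 17.5, 146 ± 8.69 and 434 ± 45.3 CPM in the same order. NR4A2 was the low member, at 4.55 ± 0.92, 4.47 ± 1.09 and 7.36 ± 1.21 CPM. MP41 had the highest mean of each gene.

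Levels of different genes are comparable only per length, so CPM of the unstranded column was divided by kb of exon. The divisor was the union of exons over all annotated transcripts: 7295 bases for NR4A1, 3967 for NR4A2 and 6314 for NR4A3. The transcripts these cells use were not measured, and a shorter NR4A1 message would give it a larger share. The ranking of NR4A1 and NR4A3 thus depends on these lengths. Per kb, NR4A3 made up 64.2% of the summed family level in 92-1, 57.8% in MEL202 and 66.3% in MP41 in DMSO at 24 h. NR4A1 made up 33.9%, 39.4% and 31.9%, and NR4A2 1.85%, 2.83% and 1.78%. NR4A2 was the smallest member in each line. The unstranded column leaves out NR4A1 reads, and with both strand columns counted the NR4A3 share was 57.8% ± 1.67 (SD, n = 3) in 92-1, 48.4% ± 5.42 in MEL202 and 59.0% ± 6.79 in MP41, with NR4A1 at 40.5% ± 1.67, 49.2% ± 5.91 and 39.5% ± 6.70. By that count, and with these exon lengths, NR4A1 and NR4A3 were level in MEL202, and NR4A3 had the larger mean in 92-1 and MP41.

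The DMSO levels at 24 h were compared between lines in a fit of the 36 libraries, with edgeR's quasi-likelihood test and Benjamini-Hochberg adjustment over all genes tested. NR4A3 was higher in MP41 than in MEL202 by 1.57 (log2, SE 0.19, adjusted p = 2.18e-08) and higher than in 92-1 by 0.82 (SE 0.18, adjusted p = 0.000302). It was lower in MEL202 than in 92-1, with a log2 difference of -0.74 (SE 0.18, adjusted p = 0.00151). These lines differ widely: 49.3% of genes passed between MP41 and MEL202, 56.6% between MP41 and 92-1 and 38.0% between MEL202 and 92-1. Each line was its own experiment, so line and experiment cannot be told apart. The same limit holds for differences of drug effects between lines and between drugs. The 2 DMSO sets of 92-1 at 24 h differed as well. NR4A1 ran from 136 to 163 CPM in the FHT-1015 experiment and from 178 to 220 CPM in the IDE196 experiment. NR4A3 ran from 233 to 268 and from 306 to 351 CPM, while the NR4A2 ranges overlapped.

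NR4A1 was higher in MP41 than in MEL202 by 1.07 (log2, SE 0.20, adjusted p = 5.67e-05, edgeR) and than in 92-1 by 0.71 (SE 0.20, adjusted p = 0.00387). The difference between MEL202 and 92-1 was -0.37 (95% interval -0.78 to 0.05, adjusted p = 0.158). NR4A2 was higher in MP41 by 0.72 (SE 0.26, adjusted p = 0.0172) than in 92-1 and by 0.71 (SE 0.25, adjusted p = 0.0202) than in MEL202, and differed by 0.01 (95% interval -0.51 to 0.54, adjusted p = 0.976) between MEL202 and 92-1. The NR4A2 differences are the least secure: without 92-1 DMSO 24 h replicate 1 the adjusted p of MP41 against 92-1 was 0.103, without MP41 DMSO 24 h replicate 2 it was 0.0660, and against MEL202 it reached 0.133, 0.0514 and 0.0825 without MEL202 DMSO 24 h replicate 1 or MP41 DMSO 24 h replicates 1 or 2. Without MP41 DMSO 24 h replicate 2, the NR4A1 difference of MP41 from 92-1 was 0.48 with an adjusted p of 0.0608.

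Levels in DMSO at 24 h were also set against those at 4 h. The log2 differences, 24 h minus 4 h, ran from -0.56 (NR4A2 in MP41, SE 0.26) to 0.33 (NR4A3 in the DMSO set of the IDE196 experiment, SE 0.10).

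NR4A2 was raised by FHT-1015 in each line and stayed raised. In 92-1, DMSO libraries held 3.69, 4.57 and 6.76 CPM at 4 h, and FHT-1015 libraries 36.2, 47.8 and 54.7 CPM, a 9.12-fold difference (log2 3.19, SE 0.22). At 24 h DMSO libraries held 3.58, 4.66 and 5.40 CPM, and FHT-1015 libraries 109, 133 and 162 CPM. Every treated library lay above every DMSO library at both times, and the 24 h treated libraries lay above those at 4 h.

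The 24 h rise of NR4A2 in 92-1 was 29.5-fold (log2 4.88, SE 0.23, adjusted p = 1.22e-10, edgeR's quasi-likelihood test). At 24 h, 29.2% of genes were called higher and 31.4% lower in this comparison, so a call alone is common there, but NR4A2 ranked 82 of 15685 genes by absolute log2 fold change. At 4 h, 12.9% of genes were called higher and 16.7% lower.

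In MP41, NR4A2 stood at 13.1, 8.07 and 9.45 CPM in DMSO and 53.1, 25.8 and 32.1 CPM with FHT-1015 at 4 h, 3.62-fold higher (log2 1.85, SE 0.26). At 24 h it stood at 7.48, 8.51 and 6.10 CPM in DMSO and 66.1, 57.7 and 56.6 CPM with FHT-1015. The groups did not overlap at either time, and the 24 h rise was 8.56-fold (log2 3.10, SE 0.27, adjusted p = 2.43e-06, edgeR). By absolute log2 fold change NR4A2 ranked 263 of 15543 genes at 24 h. Over all genes, 17.4% were called higher and 18.7% lower at 24 h, against 0.0708% and 0.154% at 4 h.

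In MEL202 the rise at 24 h was the smallest of the 3 lines. At 4 h it was near that in MP41, and the order was not tested. NR4A2 stood at 3.82, 4.60 and 3.77 CPM in DMSO and 14.2, 13.6 and 11.3 CPM with FHT-1015 at 4 h, 3.19-fold higher (log2 1.67, SE 0.25). At 24 h it stood at 3.24, 4.88 and 5.29 CPM in DMSO and 12.4, 9.80 and 13.6 CPM with FHT-1015. The groups were again separate, and the 24 h rise was 2.70-fold (log2 1.43, SE 0.24, adjusted p = 0.00112, edgeR). By absolute log2 fold change NR4A2 ranked only 1703 of 15913 genes at 24 h. Here 8.69% of genes were called higher and 10.1% lower at 24 h, and 0.157% and 0.522% at 4 h.

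From 4 h to 24 h the FHT-1015 difference of NR4A2 grew by 1.69 (log2, SE 0.32) in 92-1 and by 1.24 (SE 0.36) in MP41, and changed by -0.24 (SE 0.34) in MEL202. These values rest in part on the 4 h libraries and carry no test. In MEL202 the change was smaller than its standard error.

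The size of the 24 h rise of NR4A2 differed among the lines. The F-test over the 3 lines gave an adjusted p of 9.16e-08 (edgeR, 36 libraries), in a comparison that called 12% of genes. The rise was smaller in MEL202 than in 92-1, with a log2 difference of -3.48 (SE 0.36, adjusted p = 4.94e-08), and smaller in MP41 than in 92-1 (-1.88, SE 0.35, adjusted p = 0.000387). It was larger in MP41 than in MEL202 by 1.61 (SE 0.35, adjusted p = 0.00392). The order of the 24 h effect was thus 92-1, MP41, MEL202, with each neighbour separated by its test.

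NR4A3 showed a rise at 4 h that was gone or turned by 24 h. In 92-1 it stood at 226, 243 and 245 CPM in DMSO and at 968, 874 and 724 CPM with FHT-1015 at 4 h, 3.54-fold higher (log2 1.82, SE 0.14). By 24 h the levels were 233, 249 and 268 CPM in DMSO and 217, 268 and 335 CPM with FHT-1015. The 24 h groups overlapped, with a log2 difference of 0.11 (95% interval -0.18 to 0.39, adjusted p = 0.508, edgeR), and without FHT-1015 24 h replicate 3 the difference was -0.06.

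In MEL202, NR4A3 stood at 153, 178 and 109.8 CPM in DMSO and at 612, 467 and 448 CPM with FHT-1015 at 4 h, 3.44-fold higher (log2 1.78, SE 0.22). After 24 h the libraries held 149, 154 and 137 CPM in DMSO and 97.7, 68.1 and 80.5 CPM with FHT-1015. The 24 h treated libraries lay below every DMSO library, and the gene fell by 0.81 on the log2 scale (SE 0.22, adjusted p = 0.0172, edgeR). This call is fragile: leaving out DMSO 24 h replicate 1 or 2, or FHT-1015 24 h replicate 2 or 3, put the adjusted p at 0.0534, 0.0540, 0.0978 and 0.0811, with log2 differences from -0.80 to -0.70.

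In MP41, NR4A3 stood at 442, 385 and 311 CPM in DMSO and at 719, 934 and 719 CPM with FHT-1015 at 4 h, 2.09-fold higher (log2 1.06, SE 0.18). Its 24 h levels were 385, 474 and 443 CPM in DMSO and 355, 258 and 259.6 CPM with FHT-1015. The treated libraries were above all DMSO libraries at 4 h and below them at 24 h. The gene fell by 0.52 on the log2 scale at 24 h (SE 0.18, adjusted p = 0.0402, edgeR). It missed the threshold in a fit of only the 6 libraries compared (-0.58, adjusted p = 0.0696), and without DMSO 4 h replicate 2, DMSO 24 h replicates 1 or 2, or FHT-1015 24 h replicates 2 or 3 the adjusted p was 0.0555, 0.0508, 0.0515, 0.140 and 0.142.

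The change of the FHT-1015 difference of NR4A3 from 4 h to 24 h was -1.72 (log2, SE 0.19) in 92-1, -2.59 (SE 0.31) in MEL202 and -1.58 (SE 0.26) in MP41, as a description. The 24 h effect differed among the lines (F-test, adjusted p = 0.0237, edgeR). It was lower in MEL202 than in 92-1 by -0.96 (SE 0.26, adjusted p = 0.0200), while MP41 minus 92-1 was -0.72 (95% interval -1.25 to -0.20, adjusted p = 0.0771) and MP41 minus MEL202 was 0.24 (95% interval -0.29 to 0.76, adjusted p = 0.649). Without 92-1 FHT-1015 24 h replicate 3, the highest library of its group, the adjusted p of the F-test was 0.122 and that of MEL202 against 92-1 was 0.107. The latter was 0.0685 without 92-1 DMSO 24 h replicate 1, and 0.0809 and 0.0513 without MEL202 FHT-1015 24 h replicates 2 and 3. The difference of MP41 from 92-1 did pass without 92-1 FHT-1015 24 h replicate 1 (-0.86, adjusted p = 0.0441) and without MP41 FHT-1015 24 h replicate 1 (-0.89, adjusted p = 0.0375). The F-test also missed the threshold without 92-1 DMSO 24 h replicate 1 (0.0809) or 2 (0.0582) and without MEL202 FHT-1015 24 h replicate 2 (0.0598).

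NR4A1 moved least under FHT-1015. In 92-1 it stood at 138, 168 and 156 CPM in DMSO and at 173, 224 and 215 CPM with FHT-1015 at 4 h (log2 0.38, SE 0.12). The 24 h libraries held 136, 163 and 159 CPM in DMSO and 168, 148 and 146 CPM with FHT-1015. The groups were separate but close at 4 h and overlapped at 24 h, where the log2 difference was -0.01 (95% interval -0.26 to 0.24, adjusted p = 0.937, edgeR).

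In MEL202, NR4A1 stood at 217, 116 and 117 CPM in DMSO and at 116, 139 and 115 CPM with FHT-1015 at 4 h. The log2 difference there was -0.30 (SE 0.25), and it was 0.08 without DMSO replicate 1, the highest library. With both strand columns counted, the 4 h libraries held 250, 146 and 184 CPM in DMSO and 147, 164 and 154 CPM with FHT-1015. The log2 difference was then -0.34, and DMSO replicate 3 also lay above every treated library. At 24 h NR4A1 stood at 131, 96.0 and 120.1 CPM in DMSO and at 78.3, 86.3 and 78.4 CPM with FHT-1015. All treated libraries lay below the DMSO libraries at 24 h, with a log2 difference of -0.50 (95% interval -1.04 to 0.05) that did not pass the test (adjusted p = 0.202, edgeR). It did pass in a fit of only the 6 libraries compared (adjusted p = 0.0187) and with limma-voom and sample quality weights (adjusted p = 0.000547).

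In MP41, NR4A1 stood at 305, 245 and 241 CPM in DMSO and at 391.6, 288 and 279 CPM with FHT-1015 at 4 h (log2 0.28, SE 0.20). At 24 h it stood at 239, 326 and 173 CPM in DMSO and at 209.8, 207 and 189 CPM with FHT-1015. The groups overlapped at both times, with a 24 h log2 difference of -0.21 (95% interval -0.64 to 0.22, adjusted p = 0.438, edgeR). Without DMSO 24 h replicate 3, the lowest of its group, it was -0.46 with an adjusted p of 0.0437.

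No difference among lines in the 24 h effect was detected for NR4A1 (F-test, adjusted p = 0.427, edgeR). The pairwise differences were -0.53 (95% interval -1.11 to 0.06) for MEL202 minus 92-1, -0.30 (-0.89 to 0.28) for MP41 minus 92-1 and 0.22 (-0.36 to 0.81) for MP41 minus MEL202, on the log2 scale. Counting both strand columns together, to recover the reads of the overlapped 3′ end, gave 24 h log2 differences of NR4A1 of -0.03 in 92-1, -0.61 in MEL202 and -0.14 in MP41, and none of them passed (adjusted p = 0.849, 0.0793 and 0.597, edgeR).

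**Figure D2:**
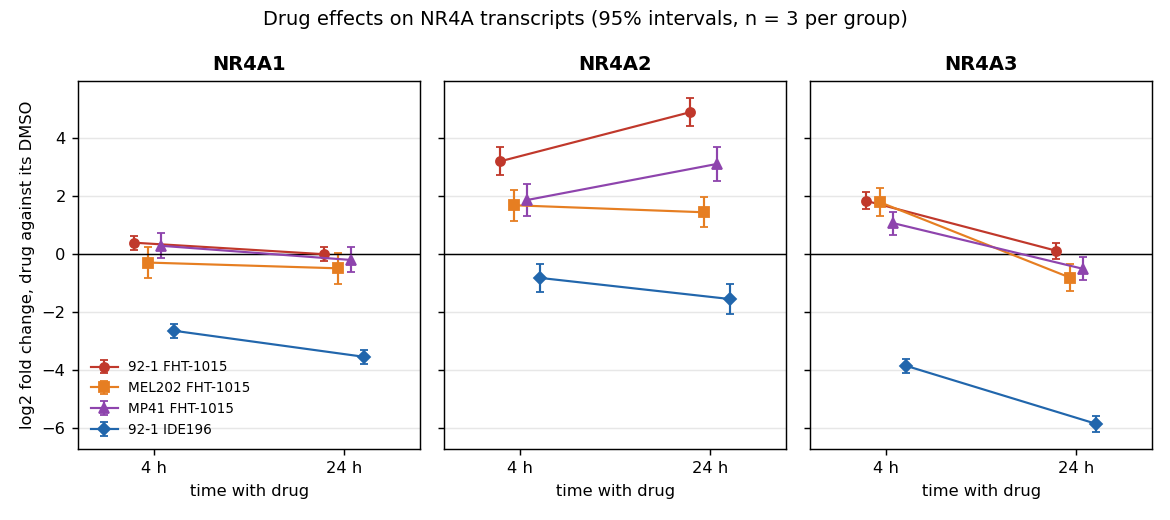
Log2 fold change of each drug against its own DMSO (y axis) at 4 h and 24 h (x axis) for the 3 genes, with 95% intervals and n = 3 per group. Under FHT-1015, NR4A2 is above 0 at both times and NR4A3 is above 0 at 4 h and near or below it at 24 h, and under IDE196 every point is below 0.

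IDE196 lowered all 3 receptors in 92-1 at 24 h, and their 4 h values were already below DMSO. NR4A3 stood at 287, 226 and 287 CPM in DMSO and at 19.2, 16.3 and 19.96 CPM with IDE196 at 4 h, a 14.5-fold lower level (log2 -3.86, SE 0.12). After 24 h they were 306, 351 and 338 CPM in DMSO and 6.195, 6.30 and 5.23 CPM with IDE196. The 24 h fall was 57.8-fold (log2 -5.85, SE 0.13, adjusted p = 8.06e-15, edgeR), and NR4A3 ranked 14 of 15437 genes by absolute fold change. In this comparison 28.7% of genes were called higher and 29.4% lower at 24 h, and 6.89% and 9.30% at 4 h.

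NR4A1 stood at 147, 183 and 169 CPM in DMSO and at 24.7, 25.6 and 29.8 CPM with IDE196 at 4 h, 6.27-fold lower (log2 -2.65, SE 0.11). At 24 h it stood at 178, 185 and 220.3 CPM in DMSO and at 17.3, 17.8 and 16.5 CPM with IDE196, an 11.7-fold fall (log2 -3.55, SE 0.12, adjusted p = 5.16e-13, edgeR). The IDE196 libraries lay far below every DMSO library at both times. With both strand columns counted the 24 h log2 difference was -3.56.

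NR4A2, already low, stood at 3.90, 3.02 and 3.66 CPM in DMSO and at 2.43, 1.61 and 1.90 CPM with IDE196 at 4 h, 1.78-fold lower (log2 -0.83, SE 0.22). At 24 h it stood at 3.22, 3.68 and 3.58 CPM in DMSO and at 1.16, 1.26 and 1.25 CPM with IDE196, which rest on 25, 24 and 21 reads. The groups were separate at both times, and the 24 h fall was 2.94-fold (log2 -1.56, SE 0.24, adjusted p = 2.45e-05, edgeR). By absolute log2 fold change NR4A2 ranked only 1617 of 15437 genes at 24 h. From 4 h to 24 h the IDE196 difference changed by -0.90 (SE 0.15) for NR4A1, -0.73 (SE 0.33) for NR4A2 and -2.00 (SE 0.16) for NR4A3, as a description.

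The 2 drugs were set against each other in 92-1 by the difference of their 24 h effects, in a fit of 24 libraries that called 33.0% of genes. IDE196 minus FHT-1015 was -6.44 for NR4A2 (log2, SE 0.33, adjusted p = 1.20e-14), -5.96 for NR4A3 (SE 0.20, adjusted p = 5.80e-18) and -3.53 for NR4A1 (SE 0.17, adjusted p = 5.90e-15, edgeR). For NR4A3 and NR4A1, whose 24 h FHT-1015 differences were not called in 92-1, the contrast is almost wholly the fall under IDE196, and for NR4A2 it is mostly the rise under FHT-1015. At 4 h the same differences were -4.00, -5.67 and -3.03, as a description, since the genes were chosen for this contrast.

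The levels of the 3 members in CPM per kb (unstranded column, with the exon lengths given above) were summed in each library. In 92-1 the sum was 60.04 ± 3.93 (SD, n = 3) in DMSO and 175 ± 15.1 with FHT-1015 at 4 h, and 61.7 ± 4.66 and 98.5 ± 14.6 at 24 h. In MEL202 it was 44.9 ± 10.3 and 101 ± 14.0 at 4 h, and 40.2 ± 1.93 and 27.1 ± 2.14 at 24 h. In MP41 it was 98.8 ± 15.4 and 178 ± 17.0 at 4 h, and 104 ± 15.3 and 88.9 ± 11.1 at 24 h. The family was therefore above DMSO at 4 h in each line, and at 24 h it stayed above it in 92-1, fell below it in MEL202 and overlapped it in MP41.

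The shares in the family sum under FHT-1015 are given as a description, and they rest on the same exon lengths. NR4A3 made up 77.1% of it in 92-1, 79.7% in MEL202 and 70.1% in MP41 at 4 h. At 24 h the NR4A2 share was 34.4% in 92-1, 17.1% in MP41 and 11.1% in MEL202. In 92-1 NR4A2 per kb then stood at 34.0 CPM, against 43.3 CPM for NR4A3 and 21.1 CPM for NR4A1. With IDE196 at 24 h the family level was 3.60 ± 0.18 against 80.1 ± 5.72 in DMSO, and NR4A1 was the largest member at 65.5%. With both strand columns counted, the NR4A3 shares at 4 h of FHT-1015 were 72.8%, 74.2% and 63.3% in 92-1, MEL202 and MP41, the NR4A2 shares at 24 h were 32.2%, 9.52% and 15.1%, and the NR4A1 share with IDE196 at 24 h was 70.6%.

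**Figure D3:**
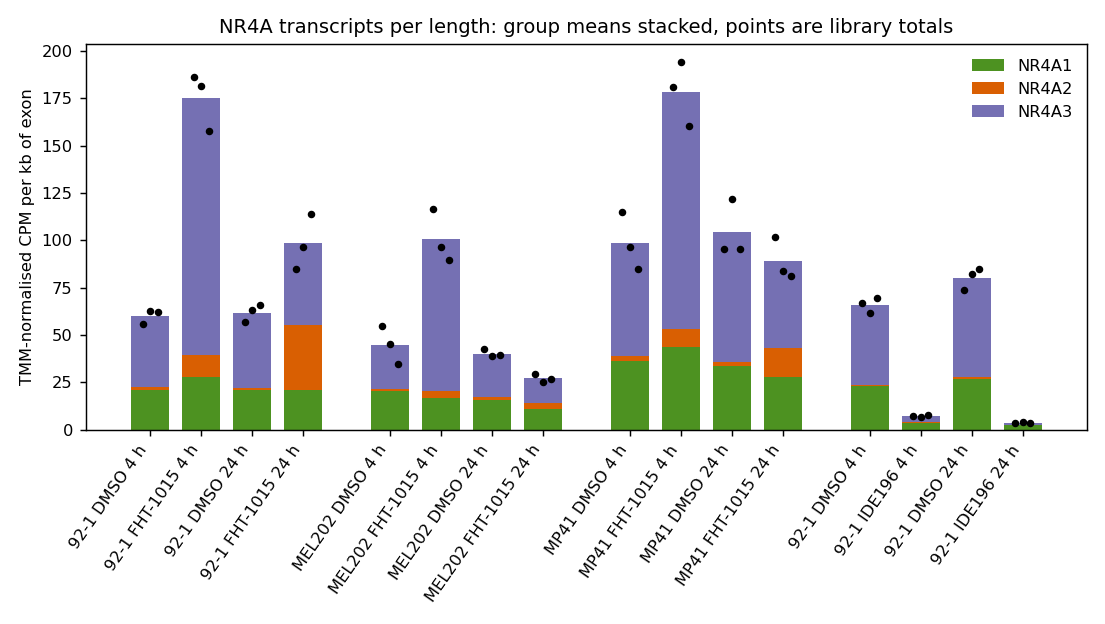
Group means of NR4A1, NR4A2 and NR4A3 in TMM-normalised CPM per kb of exon (unstranded column; y axis, from 0), stacked for each of the 16 groups, with library totals as points. The NR4A3 segment swells at 4 h of FHT-1015, the NR4A2 segment is widest at 24 h in 92-1, and the IDE196 stacks are short.

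Ordered by mean CPM over the 16 groups, NR4A1 ran from 320 ± 62.5 CPM in MP41 with FHT-1015 at 4 h to 17.2 ± 0.64 CPM in 92-1 with IDE196 at 24 h. Of the 15 pairs of neighbours in that order, 12 had overlapping ranges, and the separate ones were at the low end: MEL202 with FHT-1015 at 24 h, then IDE196 at 4 h, then IDE196 at 24 h. For NR4A2, 5 of 15 neighbouring pairs were separate, among them 92-1 with FHT-1015 at 24 h (135 ± 26.5 CPM) above MP41 at the same time (60.1 ± 5.20 CPM). For NR4A3, 5 of 15 were separate, with FHT-1015 at 4 h in 92-1 (855 ± 123 CPM) and MP41 (791 ± 124 CPM) overlapping at the top and standing above MEL202 (509 ± 89.7 CPM).

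NR4A1 and NR4A3 had closely related patterns over the 16 groups. With each group mean of log2(CPM + 1) centred on its experiment, Pearson's r was 0.932 between them, against 0.272 for NR4A2 and NR4A3 and 0.156 for NR4A1 and NR4A2. These are descriptions over groups that share libraries' lines and controls, and the IDE196 groups hold the lowest values of NR4A1 and NR4A3. The 4 h groups were also used to choose the genes. With FHT-1015 at 4 h the 2 genes parted in 92-1, MEL202 and MP41. NR4A3 had log2 differences of 1.82, 1.78 and 1.06 there, and NR4A1 had 0.38, -0.30 and 0.28. At 24 h the values were 0.11, -0.81 and -0.52 for NR4A3 and -0.01, -0.50 and -0.21 for NR4A1.

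By the same measure, over 10489 genes, the protein-coding genes most like NR4A3 were SPRY2 (r = 0.936), an inhibitor of receptor tyrosine kinase signalling that MAPK activity induces, SLC25A22 (r = 0.915), a mitochondrial glutamate carrier, and CEBPB (r = 0.910), a bZIP transcription factor. In 92-1, SPRY2 had log2 differences of 1.58 (SE 0.08) at 4 h and 0.72 (SE 0.08) at 24 h with FHT-1015, and of -1.95 (SE 0.15) and -3.76 (SE 0.17) with IDE196. With FHT-1015 at 4 h it had 0.89 (SE 0.17) in MEL202 and 0.44 (SE 0.12) in MP41. CEBPB had 0.49 (SE 0.23), -0.05 (SE 0.28) and -0.09 (SE 0.21) with FHT-1015 at 4 h in 92-1, MEL202 and MP41, and -0.80 (SE 0.13) and -1.61 (SE 0.14) with IDE196 at 4 h and 24 h. The genes most like NR4A1 were HOXC8 (r = 0.921), a homeobox factor, RPL26L1 (r = 0.919), a ribosomal protein paralogue, and MAML3 (r = 0.903), a Notch coactivator.

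Most like NR4A2 were DLX2 (r = 0.963), a homeobox factor, OFD1 (r = 0.945), a protein of the centriole and cilium base, and ARRDC3 (r = 0.908), an arrestin-domain protein. DLX2 had log2 differences with FHT-1015 at 24 h of 6.35 (SE 0.27) in 92-1, 2.08 (SE 0.24) in MEL202 and 2.30 (SE 0.20) in MP41. ARRDC3 had 3.65 (SE 0.14), 1.69 (SE 0.36) and 3.51 (SE 0.33), and OFD1 1.96 (SE 0.14), 0.93 (SE 0.21) and 1.14 (SE 0.17). With IDE196 at 24 h DLX2 had -1.49 (SE 0.52), near the -1.56 of NR4A2. OFD1 (-0.04, SE 0.14) and ARRDC3 (-0.10, SE 0.16) did not share that fall. These 3 genes were picked for their likeness, so the values are a description.

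The 6 fixed lists give the surroundings of the family: its inputs, its protein partners, its reported targets and its relatives. Each count below is of list genes called by edgeR's quasi-likelihood test at an adjusted p under 0.05, to be read against the shares over all genes given above. No list was tested as a set. The 2 genes named per list by rule were picked for calls in one direction at 24 h. Their like movement across experiments therefore follows from that rule. Few or no list genes were called in MEL202 and MP41 at 4 h. Where edgeR called 0 genes of a list in either direction there, the number of list genes with an unadjusted p under 0.05 was 0 to 1 in MEL202 and 0 to 4 in MP41, DESeq2 called 2 genes of the calcium, MEF2 and SRF list in MP41, and limma-voom called up to 4 genes of a list in MP41. For the reported targets with IDE196 at 4 h that number was 0.

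Immediate early genes other than NR4A moved in both directions. In 92-1 with FHT-1015 at 4 h, 9 of 25 tested were higher and 5 lower (8 lower with limma-voom), with a median log2 fold change of -0.01 against 0.01 for all genes. With IDE196 at 4 h, 5 were higher and 14 lower of 25, with a median of -0.81 against 0.01 for all genes, and at 24 h 6 were higher and 12 lower (median -0.75 against 0.03). In MEL202 and MP41 with FHT-1015 at 4 h the calls were 1 higher and 2 lower of 25, and 0 higher and 1 lower of 26. In MP41, 12 of those 26 had an unadjusted p under 0.05 in edgeR, DESeq2 called 0 higher and 3 lower, and limma-voom 5 higher and 7 lower.

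EGR1, a zinc finger immediate early factor, moved in opposite directions with the 2 drugs in 92-1: at 4 h it rose 2.51 (log2, SE 0.20, adjusted p = 1.83e-07, edgeR) with FHT-1015 and had a difference of -4.00 (SE 0.33, adjusted p = 3.01e-07) with IDE196. FOSB, an AP-1 subunit, had 1.69 (SE 0.22) and -1.25 (SE 0.24), and IER2 1.46 (SE 0.14) and -1.69 (SE 0.16), with adjusted p from 1.20e-06 to 0.0013. JUN, another AP-1 subunit, rose by 1.47 (SE 0.17, adjusted p = 1.54e-05) under IDE196. Under FHT-1015 it had -0.61 (SE 0.27, adjusted p = 0.0986), which was not called. The latter passed without a filter, with the replicate block and with limma-voom (adjusted p = 2.32e-05, 0.0313 and 0.00344), and without FHT-1015 4 h replicate 3 (-0.94, adjusted p = 0.0143). Without FHT-1015 4 h replicate 1 it was weaker (-0.38, adjusted p = 0.301, edgeR). These 4 were named after their values were seen. At 24 h with FHT-1015, 13 of 25 were higher and 5 lower in 92-1, 5 and 3 of 25 in MEL202 and 4 and 5 of 26 in MP41. Over the alternatives the counts ranged from 5 to 9 higher and 3 to 7 lower in MEL202, and from 2 to 9 higher and 5 to 8 lower in MP41.

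By the naming rule for this list, IER5, a stress-inducible regulator, fell in all 4 experiments at 24 h, with log2 differences of -2.36 in 92-1, -0.88 in MEL202, -1.34 in MP41 and -1.05 with IDE196. ATF3, a stress-induced bZIP factor, rose by 2.46 in 92-1, 1.79 in MP41 and 1.76 with IDE196, and had -0.10 in MEL202 (adjusted p = 0.819, edgeR). Both genes moved the same way with both drugs in 92-1 at 24 h, but the naming rule favours such genes. In MEL202 the IER5 call was lost without DMSO 24 h replicates 1 or 3 (adjusted p = 0.0859 and 0.0820) or FHT-1015 24 h replicates 1, 2 or 3 (0.110, 0.0723 and 0.0504).

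**Figure D4:**
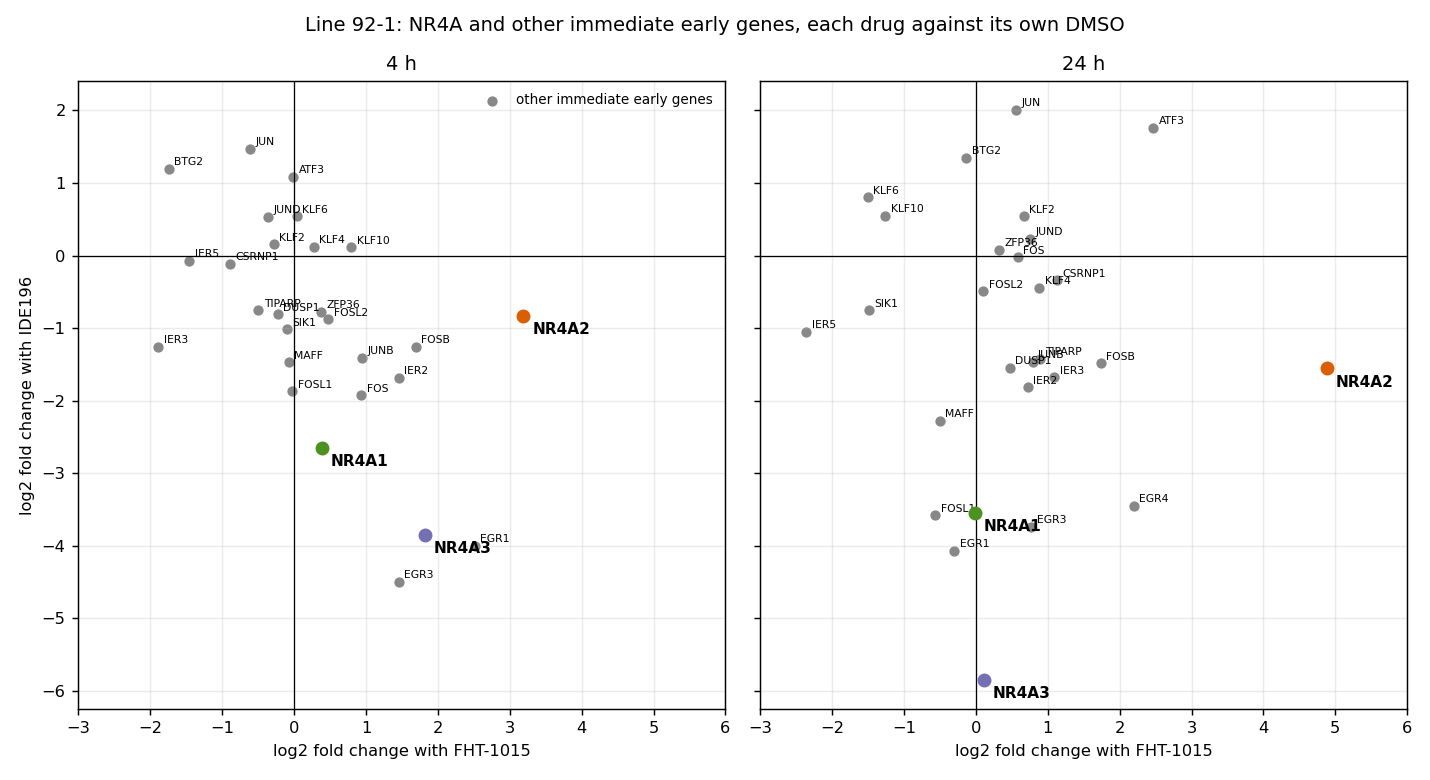
Log2 fold change in line 92-1 with FHT-1015 (x axis) and with IDE196 (y axis), each against its own DMSO, at 4 h and 24 h, for the NR4A genes (coloured) and other immediate early genes (grey). At 4 h the NR4A genes lie right of and below 0 with EGR1, EGR3, FOSB and IER2 among others, and at 24 h NR4A2 lies far to the right. EGR4 is left out at 4 h because no IDE196 library had a read of it.

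Of the genes of the cyclic AMP and CREB input, which signals to the CRE, 19 were tested. With FHT-1015 at 4 h, 1 was higher and 1 lower in 92-1, and 0 were called in MEL202 and MP41. At 24 h, 10 were higher and 3 lower in 92-1 (median log2 0.41, against 0.00 for all genes), 3 and 1 in MEL202 and 7 and 1 in MP41. The 3 higher in MEL202 became 6 in the fit of 6 libraries and 9 with limma-voom. With IDE196, 2 were higher and 4 lower at 4 h and 8 and 5 at 24 h. At 4 h the 1 higher in 92-1 ranged from 0 to 3 over the alternatives, and with IDE196 limma-voom called 4 higher and the fit of 6 libraries 2 lower. At 24 h the 1 lower in MEL202 became 0 without a filter and that in MP41 3 with limma-voom.

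SIK2, a salt-inducible kinase that restrains CREB coactivators, rose at 24 h in all 4 experiments, by 0.75 (log2, SE 0.11) and 1.41 (SE 0.37) and 1.80 (SE 0.18) in 92-1, MEL202 and MP41 with FHT-1015 and by 0.79 (SE 0.11) with IDE196. PDE4D, which breaks down cyclic AMP, rose in the same comparisons by 0.72, 1.08, 2.28 and 0.50. The MEL202 calls are fragile. Without DMSO 24 h replicates 1 or 3 or FHT-1015 24 h replicate 1 the adjusted p of SIK2 was 0.0761, 0.0630 and 0.0628, and that of PDE4D was 0.111, 0.0997 and 0.134, with 0.0592 for PDE4D without FHT-1015 24 h replicate 3. SIK1, a CRE target with a near-identical second copy in the genome, is uncertain in these counts.

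Of the calcium, MEF2 and SRF input, 18 genes were tested. At 24 h with FHT-1015, 10 were higher and 4 lower in 92-1 (median log2 0.52), 5 and 2 in MEL202 (median 0.50) and 10 and 3 in MP41 (median 0.72), while the medians of all genes were 0.00, -0.01 and 0.07. The 5 higher in MEL202 became 11 in the fit of 6 libraries and 12 with limma-voom, which also called 6 lower in MP41. At 4 h, 5 were higher and 3 lower in 92-1, 0 and 1 in MEL202, and 0 and 0 in MP41. With IDE196, 1 was higher and 4 lower at 4 h and 5 and 4 at 24 h (median 0.14), with 2 higher at 4 h in DESeq2 or without a filter. PPP3CA, the catalytic subunit of calcineurin, rose at 24 h by 2.46 (log2, SE 0.11), 0.81 (SE 0.24), 1.01 (SE 0.19) and 0.86 (SE 0.13) in 92-1, MEL202, MP41 and with IDE196. NFATC4, a calcineurin-dependent factor, rose by 3.43, 1.08, 0.82 and 2.78. The NFATC4 call in MP41 was lost in the fit of 6 libraries (0.75, adjusted p = 0.0735). For PPP3CA in MEL202 the adjusted p was 0.124 and 0.117 without DMSO 24 h replicates 1 and 3, and 0.105, 0.0649 and 0.0749 without FHT-1015 24 h replicates 1, 2 and 3.

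Of the protein partners and regulators, 12 to 13 genes were tested in each experiment. At 24 h 5 were higher and 2 lower in 92-1 with FHT-1015, 1 and 1 in MEL202, 3 and 3 in MP41 and 6 and 3 with IDE196. At 4 h the counts were 2 and 4, 0 and 0, 0 and 0, and 2 and 0. The 4 lower in 92-1 became 7 with limma-voom, and the 2 higher with IDE196 became 1 with RLE and 0 in the fit of 6 libraries. The 1 higher in MEL202 became 2 without a filter or with the replicate block, 3 with DESeq2, 4 in the fit of 6 libraries and 6 with limma-voom, and the 3 higher in MP41 became 1 without a filter and 0 in the fit of 6 libraries. RXRB, a heterodimer partner of nuclear receptors, rose at 24 h by 0.76 (log2, SE 0.10) in 92-1 and 0.64 (SE 0.14) with IDE196. It passed narrowly in MEL202 (0.67, adjusted p = 0.0265, edgeR) and MP41 (0.51, adjusted p = 0.0415), and both calls were lost without a filter (adjusted p = 0.104 and 0.0522), the MP41 one also in the fit of 6 libraries (0.45, adjusted p = 0.230). The MEL202 call was lost without any one of its 24 h libraries (adjusted p from 0.0545 to 0.107), and the MP41 call without any one of its libraries other than DMSO 24 h replicate 2 and FHT-1015 24 h replicate 1 (0.0587 to 0.157). BCL2, an apoptosis regulator that NR4A1 can bind, fell in all 4, with log2 differences of -1.25 in 92-1, -1.50 in MEL202, -2.92 in MP41 and -0.37 with IDE196, where the call was lost without DMSO 24 h replicates 4 or 5 or IDE196 24 h replicate 2 (adjusted p = 0.0618, 0.0924 and 0.0942).

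Of the 11 genes reported as NR4A targets, mostly from neurons and other tissues, only 5 or 6 were expressed enough to be tested. At 24 h 1 was higher and 3 lower in 92-1 with FHT-1015, 0 and 1 in MEL202, 1 and 4 in MP41, and 0 and 4 with IDE196. At 4 h the counts were 0 and 1 in 92-1 and 0 elsewhere. Over the alternatives the lower count ranged from 1 to 3 in 92-1 at 4 h and from 0 to 2 in MEL202 at 24 h, and the 1 higher in MP41 became 0 in the fit of 6 libraries. BIRC5 (survivin), which is also a cell-cycle gene, fell by 0.64 in 92-1, 0.79 in MP41 and 1.13 with IDE196 and had -0.19 in MEL202 (adjusted p = 0.586, edgeR). ENO3, a muscle enolase, fell by 0.70, 1.01 and 1.61 in 92-1, MEL202 and with IDE196 and rose by 0.56 in MP41. With both strand columns counted ENO3 had -0.33 in 92-1, which passed (adjusted p = 0.0353, edgeR), and -0.11 in MEL202 and 0.20 in MP41, which did not (adjusted p = 0.815 and 0.343). With limma-voom it had 0.33 in MP41 (adjusted p = 0.0201). Its MP41 call was also lost in the fit of 6 libraries (0.50, adjusted p = 0.128) and without DMSO 24 h replicate 3 (0.33, adjusted p = 0.105), FHT-1015 4 h replicate 3 (0.0590) or FHT-1015 24 h replicates 1 or 2 (0.0636 and 0.0827). The 92-1 call was lost without DMSO 24 h replicates 2 or 3 or FHT-1015 24 h replicate 1 (0.0660, 0.0699 and 0.0975).

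The other nuclear receptors gave the broadest context, with 32 or 33 of 45 tested. At 24 h 10 were higher and 12 lower in 92-1 with FHT-1015, 6 and 3 in MEL202, 9 and 8 in MP41, and 15 and 5 with IDE196. Over the alternatives the counts ranged from 4 to 10 higher and 2 to 8 lower in MEL202, and from 5 to 11 lower in MP41. At 4 h the counts were 4 and 6, 0 and 2, 0 and 0, and 8 and 4. The 4 higher in 92-1 became 7 with the replicate block and 9 with limma-voom, and the 8 higher with IDE196 became 4 in the fit of 6 libraries. NR3C1, the glucocorticoid receptor, rose at 24 h by 1.62 (log2, SE 0.11) in 92-1, 1.75 (SE 0.30) in MEL202, 1.88 (SE 0.22) in MP41 and 1.89 (SE 0.13) with IDE196. THRB, a thyroid hormone receptor, rose by 2.48, 2.77, 2.06 and 3.93. The naming rule picked these 2 receptors for such rises, and over the list the 24 h calls in 92-1 went both ways with each drug.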

How the data were processed

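RNA was poly-A selected and made into libraries with a kit that does not mark strand, per the labels' protocols, and the first strand held 49.73% to 50.11% of stranded reads. The authors deposited whole-number read counts per gene and library, in the column layout of STAR gene counts, for 58870 genes. The genome build hg38 and the tool limma are named in the submitters' processing notes, and the aligner version and annotation are not given in the sources used here. The unstranded count column was used, and 92 spike-in rows without reads were left out. Of the genes, 58597 matched GENCODE 29 by unversioned identifier.

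Each experiment was fitted with edgeR 4.0.16 in R 4.3.3 (TMM, filterByExpr, quasi-likelihood F-test, 4 groups as terms). Line differences used 36 libraries and drug differences 24. P-values were adjusted by Benjamini-Hochberg over all genes tested, with a call at 0.05. Standard errors are the log2 fold change over the square root of F. Printed CPM use TMM factors over all 48 libraries, and levels per length divide by the union of GENCODE exons, while fold changes come from each experiment's own fit. The scripts were tested on simulated data. Counts are not independent molecules, so depth bounds the precision of low genes such as NR4A2 under IDE196.

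The members and lists were chosen with earlier results of these data known. Named by rule were the 3 members, the 3 protein-coding genes per member with the highest correlation (mean of at least 5 CPM), and the 2 genes per list called in one direction at 24 h in most experiments. Alternatives were RLE normalisation, no filter, both strand columns, DESeq2 1.42.0, limma 3.58.1 voom with sample weights, only the 6 samples compared, a replicate block and leaving out each library.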

Additional observations from a re-analysis of the deposited data

Results flagged for a closer look

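Differences of the same contrast between lines, or between drugs, were noted where the test of the difference passed 0.05 (edgeR's quasi-likelihood test, adjusted over all genes). Among the lines, the 24 h FHT-1015 effect differed for NR4A2 (F-test, adjusted p = 9.16e-08) and for NR4A3 (adjusted p = 0.0237). For NR4A2 the log2 differences were -3.48 for MEL202 minus 92-1 (adjusted p = 4.94e-08), -1.88 for MP41 minus 92-1 (adjusted p = 0.000387) and 1.61 for MP41 minus MEL202 (adjusted p = 0.00392). For NR4A3, MEL202 minus 92-1 was -0.96 (adjusted p = 0.0200), and the adjusted p was 0.107 without 92-1 FHT-1015 24 h replicate 3, 0.0685 without 92-1 DMSO 24 h replicate 1, and 0.0809 and 0.0513 without MEL202 FHT-1015 24 h replicates 2 and 3. The F-test of NR4A3 missed the threshold without 92-1 FHT-1015 24 h replicate 3 (0.122), 92-1 DMSO 24 h replicate 1 (0.0809) or 2 (0.0582), or MEL202 FHT-1015 24 h replicate 2 (0.0598).

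Between the drugs in 92-1, the 24 h effects of IDE196 minus FHT-1015 were -3.53 for NR4A1, -6.44 for NR4A2 and -5.96 for NR4A3 (adjusted p = 5.90e-15, 1.20e-14 and 5.80e-18). Groups of 3 libraries are too small for the search for single outlying libraries.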

How the results depend on the processing

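The 24 h effects of NR4A2 in the 4 experiments, of NR4A1 and NR4A3 under IDE196, and the drug differences kept direction and call under all alternatives run. NR4A1 in 92-1 under FHT-1015 at 24 h was near 0, and turned to 0.0101 with RLE or DESeq2 and to 0.00055 with the replicate block, with left-out libraries giving -0.11 to 0.0373. NR4A3 there ran from -0.0559 to 0.25 as libraries were left out. NR4A1 in MEL202 was called with limma-voom (-0.54) and in the 6-sample fit (-0.50), and in MP41 left-out libraries gave -0.46 to -0.0064. NR4A3 left-out ranges were -0.95 to -0.70 in MEL202 and -0.70 to -0.43 in MP41, where the 6-sample fit gave -0.58 (not called). The cause was not tested.

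Line differences of the NR4A3 effect ranged with left-out libraries from -1.09 to -0.78 (MEL202 minus 92-1) and -0.89 to -0.55 (MP41 minus 92-1), and the adjusted p of the F-test from 0.0124 to 0.122. DMSO levels of NR4A2 ranged from -0.15 to 0.21 (MEL202 minus 92-1, and -0.0347 with RLE), 0.57 to 0.87 (MP41 minus 92-1) and 0.51 to 0.87 (MP41 minus MEL202, and 0.60 without a filter, not called). NR4A1 in MP41 minus 92-1 ranged from 0.48 to 0.90.

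Same-numbered FHT-1015 and DMSO libraries correlated above 0.1 in 12 of 18 pairs. The correlations ran from -0.05 to 0.47 in 92-1, from 0.06 to 0.46 in MP41 and from -0.63 to 0.81 in MEL202. The labels do not say that equal numbers mark a shared batch, so the main fit took no pairs. With the replicate block the calls of the members at 24 h did not change, and NR4A3 was -0.82 in MEL202. The IDE196 arms share no numbers, so no block could be fitted there.

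Over all genes, counts of calls moved by over 1.5 times as follows. In 92-1 with FHT-1015 at 4 h, 2016 higher became 3124 with limma-voom. MEL202 at 4 h had 25 higher and 83 lower, 53 and 154 without a filter, 132 and 249 with DESeq2, 15 and 63 with the replicate block, 16 and 99 with limma-voom, and 0 and 0 (589 at an unadjusted p under 0.05) in edgeR's 6-sample fit. MP41 at 4 h had 11 and 24, 30 and 92 without a filter, 47 and 122 with DESeq2, 199 and 451 with limma-voom, and 96 and 250 with 6 samples. At 24 h MEL202 had 1383 and 1601, 4484 and 4340 with limma-voom and 3123 and 3133 with 6 samples, and MP41 had 2709 and 2908, 4990 and 4445 and 1362 and 1990. Of 648 list counts under alternatives, 80 moved by over 1.5 times. For 56 effects of single list genes named above, the alternatives were run after seeing the data: of 1048 values 50 lost the call, 4 gained it and 2 changed sign, both for ATF3 in MEL202, which ranged from -0.22 to 0.0102 with left-out libraries. The family shares with both strand columns were also computed after seeing the data, and with them NR4A1 in MEL202 DMSO at 24 h went from 39.4% to 49.2%. Depth limits NR4A2 under IDE196, at 21 to 25 reads.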
